A study of Homo sapiens with 27 samples.

Results

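ADH1B, FMO2 and CCDC102B are 3 genes among the 60534 gene IDs listed for every library, and among the 19307 of those IDs that matched a protein-coding gene. All 3 passed the filter on low counts in both assays, which kept 13291 genes in RNA-seq and 11764 in Ribo-seq. They were selected on their fold changes in quiescent or irradiated against cycling cells, as the genes reported to rise most, so those levels are given as a description without a test. The etoposide and thapsigargin states were not used in the choice, although they are compared with the same cycling libraries.

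IMR90 is a line of normal human lung fibroblasts. RNA-seq measured the mRNA of each gene, and Ribo-seq measured the mRNA fragments that ribosomes protect from digestion, from lysates of cells in 5 states. The labels give the genotype WT for 4 of these states and no genotype for the thapsigargin state. Cycling cells were untreated and harvested before confluence (2 RNA-seq and 3 Ribo-seq libraries). Quiescent cells were arrested by contact inhibition (3 of each). Irradiated senescent cells were harvested 10 days after 15 Gy of ionizing radiation (3 of each). Etoposide, a topoisomerase II poison that breaks DNA, made cells senescent through 3 treatments at 50 µM, with harvest on day 10 (3 of each). Thapsigargin, which blocks the calcium pump of the endoplasmic reticulum, was given to cycling cells at 25 nM for 3 h (2 of each), in a medium described without the antibiotics of the other states.

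ADH1B encodes the beta subunit of class I alcohol dehydrogenase, which oxidizes ethanol and also retinol with NAD. It is best known in liver and is also a gene of stromal and fat cells. FMO2 encodes the flavin-containing monooxygenase known as the lung form of that family, which uses NADPH to add oxygen to nitrogen and sulfur atoms of drugs and other compounds. CCDC102B encodes a coiled-coil protein of the centrosome linker, the fibrous tether that holds a pair of centrosomes together until mitosis, when the kinase NEK2 helps to dissolve it.

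Gene counts came to between 20.6 and 57.1 (in units of 1e6) in an RNA-seq library and between 1.94 and 20.0 in a Ribo-seq library. Values are given as CPM, counts per 1e6 after TMM scaling, which are not divided by gene length, so levels of different genes are not compared. Counts of replicates differed by 1.96 to 133 times the chi-square that sampling noise alone would give. The labels do not say that replicates were separate cultures, so p-values measure only the spread between these libraries, which may be technical. In thapsigargin RNA-seq 1.35% and 1.40% of reads were unmapped, against 27.8% to 40.6% elsewhere, and in thapsigargin Ribo-seq 65.2% and 66.9% mapped to several places, against 19.8% to 31.9%. The treatment, the medium and these library properties cannot be told apart. All 10 fibroblast markers were above 1 CPM in every state, with a summed level from 9099 to 14703 CPM, and hepatocyte markers summed to at most 0.384 CPM. Of 5 adipocyte markers only FABP4 had a mean above 1 CPM, and ADIPOQ was at 0 except in etoposide-treated cells. The adipocyte sum was 7.15 and 10.3 CPM with thapsigargin against 1.21 to 2.71 CPM elsewhere, and KRT19, the 1 epithelial marker above 1 CPM, averaged 92.6 CPM with thapsigargin against 2.46 to 18.6 CPM elsewhere. Endothelial markers summed to at most 2.62 CPM and leukocyte markers to at most 0.255 CPM outside etoposide-treated cells and 1.01 to 1.27 CPM within them. All 14 hepatocyte, adipocyte and leukocyte markers had counts after etoposide, and several in each other state had none. Smooth muscle markers summed to 238 and 318 CPM with thapsigargin against 450 to 713 CPM elsewhere. The part of these markers in the results was not tested.

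ADH1B (ENSG00000196616) lies on the minus strand of chromosome 4, at chr4:99304971-99321401 in GRCh38.p14, inside the alcohol dehydrogenase cluster. The 250 bases before its start site, chr4:99321402-99321651 on the minus strand, are shown because the levels of the gene ranged so widely between states. The capitals mark an E-box (CACGTG) and a pair of CCAAT boxes read on the other strand (ATTGG).
ADH1B upstream: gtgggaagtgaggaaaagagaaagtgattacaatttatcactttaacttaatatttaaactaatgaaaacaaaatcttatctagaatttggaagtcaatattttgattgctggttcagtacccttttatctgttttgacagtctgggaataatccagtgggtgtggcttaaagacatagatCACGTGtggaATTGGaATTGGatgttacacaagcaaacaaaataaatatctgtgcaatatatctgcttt
This window, from the RefSeq promoter table, has a GC content of 32.4% and 1 CpG. Of 35116 windows of that length, 3.28% have a GC content as low or lower, and the median is 58%. Both strands were searched for a TATA box, a CCAAT box, a GC box, an E-box and a forkhead motif. The E-box stands 69 bases before the start site and the CCAAT boxes 59 and 53 bases before it. The E-box occurs in 6.34% of all windows and the CCAAT box in 32%. The TATA box (TATAAA, in 10.7% of windows), the GC box (GGGCGG, in 42.6%) and the forkhead motif (GTAAACA, in 2.98%) do not occur in these letters.

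In mRNA, ADH1B was highest in irradiated cells, lower in quiescent cells, and close to 0 with thapsigargin. Cycling libraries had 1.75 and 5.91 CPM and quiescent ones 45.4, 28.8 and 40.7 CPM. Irradiated libraries reached 171, 107 and 155 CPM, while etoposide-treated ones had 12.3, 2.95 and 12.7 CPM. Irradiated and quiescent cells did not overlap each other or any other state, whereas the lowest etoposide library lay between the cycling ones. For either assay, the share of all genes that separate in this way was not counted, and the choice of the gene used these 2 states. In bulk libraries, fewer cells that express a gene and less RNA per cell cannot be told apart. The fitted log2 difference from cycling cells was 3.37 ± 0.60 (SE) in quiescent and 5.28 ± 0.64 in irradiated cells. These values rest on a cycling pair that differed more than 3-fold, and without cycling RNA replicate 2 they became 4.45 and 6.36.

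Footprints of ADH1B followed the same order of states. Cycling libraries had 0.932, 2.81 and 0.960 CPM, and quiescent ones 32.2, 24.8 and 22.3 CPM. Irradiated libraries had 107, 63.4 and 106 CPM and etoposide-treated ones 6.30, 2.02 and 10.2 CPM. Among the states with counts, only etoposide-treated and cycling cells overlapped, as in mRNA. With thapsigargin ADH1B had no footprint, but 3 counts in those libraries would be 1.63 and 1.56 CPM. That is above cycling replicates 1 and 3, so depth does not separate thapsigargin from cycling cells here. The numbered library that stood apart was the same in both assays for 3 states: number 2 was the highest of the cycling libraries and the lowest of the irradiated and etoposide ones. The fitted log2 differences were 3.97 ± 0.49 in quiescent and 5.78 ± 0.50 in irradiated cells, and 4.80 and 6.62 without cycling Ribo-seq replicate 2.

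FMO2 (ENSG00000094963) is at chr1:171185300-171212686 in GRCh38.p14, in the FMO cluster of chromosome 1. Its states separated fully in both assays, with no overlap between any of them. The share of all genes that do so was not counted, and the choice of the gene used the quiescent and irradiated states. In mRNA, cycling libraries had 1.68 and 1.45 CPM, quiescent ones 12.6, 11.9 and 15.7 CPM, irradiated ones 63.8, 47.8 and 48.3 CPM, and etoposide-treated ones 7.13, 3.57 and 6.09 CPM. Irradiated cells averaged 3.98 times the mean of quiescent cells, and quiescent cells 2.40 times that of etoposide-treated cells. In footprints, cycling libraries had 2.69, 2.59 and 3.20 CPM and quiescent ones 27.4, 21.4 and 22.1 CPM. Irradiated libraries had 102, 75.5 and 66.8 CPM and etoposide-treated ones 9.45, 9.33 and 11.6 CPM. The fitted log2 differences from cycling cells were 3.08 ± 0.34 in mRNA and 3.06 ± 0.21 in footprints for quiescent cells, and 5.08 ± 0.36 and 4.86 ± 0.22 for irradiated cells. When counts ignored strand, 85.7% of the FMO2 counts remained, against 99.7% for CCDC102B, and reads on the strand opposite FMO2 came to 8 counts in all libraries together.

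CCDC102B (ENSG00000150636) runs along the plus strand at chr18:68715216-69058121 in GRCh38.p14. Its first start site faces that of TMX3, a disulfide isomerase gene of the endoplasmic reticulum on the other strand, across 107 bases (chr18:68715109-68715215). That gap is shown, read along the CCDC102B strand, because both genes have a start site beside it and their levels are compared further on. RefSeq also gives CCDC102B a later start, whose upstream window is chr18:68797830-68798079, with a GC content of 39.2% and 1 CpG. Gene counts do not tell which start the reads came from. In the gap, capitals mark a GC box (GGGCGG), 103 bases before the first CCDC102B start.
CCDC102B to TMX3 gap: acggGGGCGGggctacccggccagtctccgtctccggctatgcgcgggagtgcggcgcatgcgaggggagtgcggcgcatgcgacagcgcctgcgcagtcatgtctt
The gap has a GC content of 72.0% and 15 CpG, and none of the other 4 motifs occurs in its letters.

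In mRNA CCDC102B was as high after etoposide as after irradiation, which set it apart in order from ADH1B and FMO2. Cycling libraries had 5.55 and 6.54 CPM, quiescent ones 22.1, 21.1 and 35.7 CPM, irradiated ones 39.1, 37.9 and 42.8 CPM, and etoposide-treated ones 45.5, 35.5 and 43.3 CPM. Irradiated and etoposide-treated cells overlapped, and every library of these states exceeded every cycling library more than 5-fold. Quiescent cells lay below the irradiated ones without overlap, although quiescent replicate 3 was above the lowest etoposide library. In footprints the order was etoposide (47.1, 45.0 and 55.8 CPM), irradiated (44.7, 40.4 and 35.1 CPM), quiescent (31.2, 31.0 and 27.7 CPM) and cycling (7.25, 8.57 and 6.40 CPM). None of these 4 states overlapped in footprints. The share of all genes that separate so was not counted, and the choice of the gene used the quiescent and irradiated states. The fitted log2 differences from cycling cells were 2.13 ± 0.27 in mRNA and 2.01 ± 0.24 in footprints for quiescent cells, and 2.73 ± 0.27 and 2.43 ± 0.25 for irradiated cells.

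**Figure D1:**
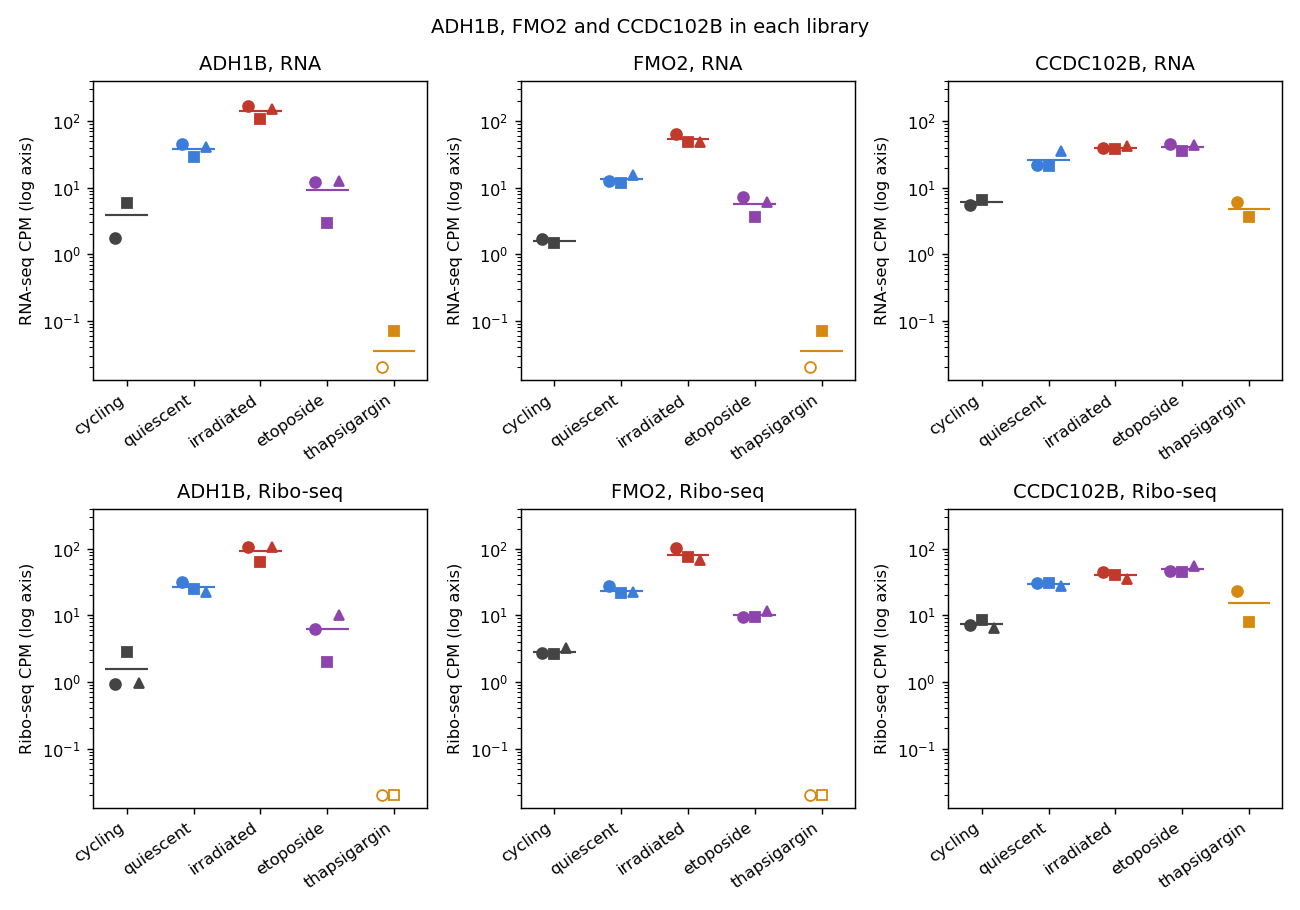
Level of each gene in every library, as CPM on a log axis, for RNA-seq (top) and Ribo-seq (bottom); circles, squares and triangles are replicates 1, 2 and 3, horizontal lines are group means, and open symbols at the bottom are libraries with no count. ADH1B and FMO2 peak in irradiated cells and are at or near 0 with thapsigargin, while CCDC102B is about as high after etoposide (mean 41.4 CPM in RNA-seq) as after irradiation (39.9 CPM). The height of an open symbol is not a measured level: in the thapsigargin Ribo-seq libraries 3 counts would be 1.63 and 1.56 CPM.

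The rank of the genes in the comparisons that chose them is a description, and it depends on a minimum level in cycling cells. Of the 11730 RNA-seq genes with a cycling mean of at least 1 CPM, ADH1B had the largest and FMO2 the next largest fitted log2 difference in quiescent and in irradiated cells. They had the same order among 11387 such genes in Ribo-seq, where ADH1B passed that minimum of the mean through cycling replicate 2. CCDC102B was number 5 in quiescent and number 20 in irradiated RNA, and number 7 and number 26 in footprints. Among all genes tested in RNA, ADH1B was number 43 in quiescent and number 36 in irradiated cells, and FMO2 was number 51 and number 38. CCDC102B was number 110 and number 163 there. Every library of the 3 genes in quiescent and irradiated cells was above every cycling library in both assays. The choice of the genes favours this, and the share of all genes that separate in this way was not counted. Of all genes tested, 15.6% were called (adjusted p under 0.05, either direction) in quiescent RNA, 34.9% in irradiated RNA, 21.7% in quiescent Ribo-seq and 39.8% in irradiated Ribo-seq.

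Etoposide gave the first state that the choice of genes did not use, a senescent state made by a drug in place of radiation. The cycling libraries it is compared with were part of that choice, so its p-values are not independent of the choice. In RNA, 2 of the 3 genes were called higher than in cycling cells, FMO2 and CCDC102B, where 34.5% of all genes were called in either direction and 16.8% higher. CCDC102B was higher by 2.78 ± 0.27 on the log2 scale (edgeR adjusted p = 4.89e-06), and FMO2 by 1.82 ± 0.33 (adjusted p = 0.000928). ADH1B had a log2 difference of 1.33 ± 0.57, with an adjusted p of 0.0896 and an unadjusted p of 0.0371. That call turned on single libraries, since without etoposide RNA replicate 2 ADH1B was called at 1.76 (adjusted p = 0.0105) and without cycling RNA replicate 2 at 2.41 (adjusted p = 0.0362). Without cycling RNA replicate 1 it was 0.65 with an adjusted p of 0.518.

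In footprints all 3 genes were called higher after etoposide, where 34% of all genes were called in either direction and 16.4% higher. The log2 differences were 2.72 ± 0.24 for CCDC102B (edgeR adjusted p = 1.44e-06), 1.84 ± 0.23 for FMO2 (adjusted p = 4.38e-05) and 1.87 ± 0.54 for ADH1B (adjusted p = 0.0182). The ADH1B call was lost with only these states in the fit (adjusted p = 0.0565), without cycling Ribo-seq replicate 1 (0.0652) or 3 (0.0627), and without etoposide Ribo-seq replicate 3 (log2 difference 1.29, adjusted p = 0.121). Calls for FMO2 and CCDC102B held in both assays without any 1 library, with the largest adjusted p at 0.0154 for FMO2 in RNA without cycling RNA replicate 2.

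**Figure D2:**
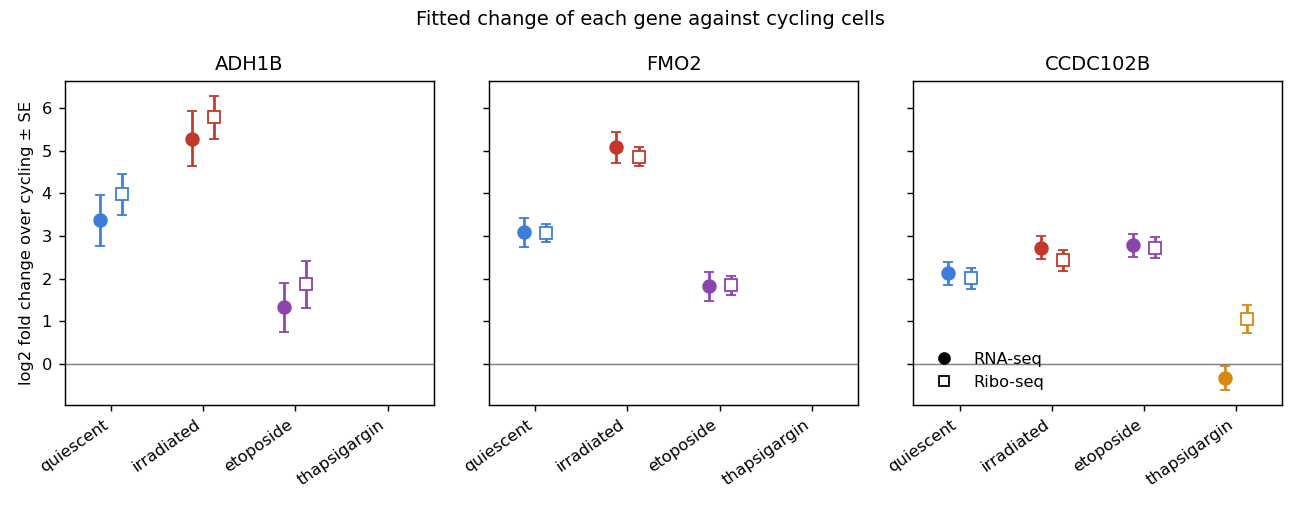
Fitted log2 fold change of each gene over cycling cells ± SE, for RNA-seq (filled circles) and Ribo-seq (open squares); thapsigargin is drawn for CCDC102B only, because ADH1B and FMO2 had too few counts there. RNA and footprint values lie close together in the arrested states, and CCDC102B has its highest value after etoposide (2.78 in RNA, 2.72 in footprints).

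With thapsigargin, a brief stress of cycling cells, RNA of both enzyme genes was lower than in cycling cells, opposite to the arrested states. The treatment, the medium and the library properties given above cannot be told apart here, so the difference is not assigned to the drug. In RNA, ADH1B and FMO2 each had 0 counts in replicate 1 and 4 counts (0.0702 CPM) in replicate 2. Cycling libraries together held 162 counts of ADH1B and 74 of FMO2. Every thapsigargin library was thus below every cycling library, and below every library of the other states. How many of all genes separate in this way was not counted. Relative to depth, ADH1B was 85.0 times higher in cycling cells (95% interval 32.6 to 316, counting error only) and FMO2 38.8 times higher (14.5 to 146). These sizes rest on 1 thapsigargin library, since all its counts came from thapsigargin replicate 2. For ADH1B, cycling RNA replicate 2 also gave 114 of the 162 cycling counts. The fitted log2 difference ranged from -9.73 to -5.30 for ADH1B and from -8.51 to -4.40 for FMO2 when 1 library was left out, with the lowest values without thapsigargin RNA replicate 2, where no count remained and the fit gives no size. Both were called lower by edgeR, with adjusted p = 0.0013 for ADH1B and 7.82e-05 for FMO2, where 24.5% of all genes were called in either direction and 12.8% lower. In footprints neither gene had a count with thapsigargin, against 57 counts of ADH1B and 92 of FMO2 in cycling cells. The limit that a count of 0 allows was set at 3 counts over the group. That limit lay 2.17-fold below the pooled cycling level for ADH1B and 3.50-fold below it for FMO2, with the cycling level taken as exact. For ADH1B, cycling Ribo-seq replicate 2 gave 39 of the 57 cycling counts. Cycling replicates 1 and 3, at 0.932 and 0.960 CPM, were close to the limit of 0.799 CPM, so 2.17-fold is not a firm minimum for ADH1B. In Ribo-seq FMO2 was called lower (edgeR adjusted p = 0.00127) and ADH1B was not (adjusted p = 0.139, or 0.0222 with DESeq2). ADH1B at its cycling level would have given about 6.50 counts in these libraries, so the depth behind its footprint value is small.

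CCDC102B kept measurable counts with thapsigargin and did not move in one direction. In RNA it had 6.09 and 3.62 CPM, overlapping the cycling pair, and a log2 difference of -0.32 ± 0.28 (edgeR adjusted p = 0.444; 95% interval -0.87 to 0.24). In footprints it had 23.4 and 7.82 CPM, from 43 and 15 counts, and a log2 difference of 1.06 ± 0.33 that was called higher (edgeR adjusted p = 0.0176). CCDC102B and FMO2 were thus the members called in thapsigargin Ribo-seq, in opposite directions, where 44.4% of all genes were called in either direction, 20% higher and 24.4% lower. The median log2 difference over all genes was -0.11 in that comparison. Replicate 1 carried the CCDC102B result: without it the log2 difference was 0.05 (edgeR adjusted p = 0.953), and with only these states in the fit the adjusted p was 0.136. The thapsigargin Ribo-seq libraries also follow another gene list than the cycling ones, and the effect of that on CCDC102B was not tested.

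Translational efficiency (TE) is the ratio of footprints to mRNA. The ratio of mean CPM in Ribo-seq and RNA-seq ran from 1.53 to 1.81 for FMO2 and from 1.00 to 1.23 for CCDC102B over the cycling, quiescent, irradiated and etoposide states. For ADH1B it was 0.409 in cycling cells and 0.638 to 0.690 in the 3 arrested states. The change of TE after etoposide was 0.49 ± 0.87 for ADH1B (95% interval -1.21 to 2.19), -0.02 ± 0.39 for FMO2 (-0.77 to 0.74) and -0.10 ± 0.36 for CCDC102B (-0.80 to 0.60) on the log2 scale. None of the 3 was called by edgeR (adjusted p = 1.00 for each) and none had an unadjusted p under 0.05, where 0.0683% of all genes were called and 448 of 11713 had an unadjusted p under 0.05. All 3 intervals span changes in either direction. The fit treats the libraries of both assays as unrelated. With a replicate block for each state and number across assays, the values were 0.38 ± 0.35 for ADH1B, 0.11 ± 0.39 for FMO2 and -0.17 ± 0.32 for CCDC102B, and none was called. With thapsigargin the ratio for CCDC102B was 3.22, and its TE was higher by 1.35 ± 0.45 (edgeR adjusted p = 0.0370), where 20.8% of all genes were called in either direction and 7.89% higher. This call was lost without thapsigargin Ribo-seq replicate 1 (log2 difference 0.34, adjusted p = 0.699) or RNA replicate 2 (1.06, 0.119), without cycling RNA replicate 1 (0.0566) or 2 (0.0945) or Ribo-seq replicate 3 (0.0595), with only these states in the fit (0.202), and with the block across assays (1.19 ± 0.41, 0.0553). With no footprint counted, no TE is given for ADH1B and FMO2 under thapsigargin.

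Over the 13 RNA-seq libraries, log2 CPM of ADH1B and FMO2 had a Pearson r of 0.99, and 0.96 over the 11 libraries without thapsigargin. CCDC102B was less like them, with r = 0.79 to ADH1B and 0.83 to FMO2, or 0.59 and 0.70 without thapsigargin. Over 14 Ribo-seq libraries these values were 0.97, 0.64 and 0.63. The libraries share their states, so these are descriptions. The gene most like ADH1B in RNA was IL16, a cytokine gene (r = 0.98, and 0.84 in Ribo-seq), at means of 4.52 CPM in cycling, 17.3 in quiescent, 26.4 in irradiated, 10.0 in etoposide-treated and 1.10 in thapsigargin-treated cells. MXI1, an antagonist of MYC, NR2F1, an orphan nuclear receptor, and the zinc finger genes ZC3H6 and ZFP90 followed, and NR2F1 was not alike in Ribo-seq (r = 0.15). ZC3H6, IL16 and ZFP90 were also among the 5 genes most like FMO2, with ALPL, the tissue-nonspecific alkaline phosphatase, and LMOD1, a leiomodin of smooth muscle. The 5 most like CCDC102B were CFLAR, an inhibitor of death receptor signalling, TRIM38, ZNF528, SH3BGRL2 and SPRY1, a receptor tyrosine kinase antagonist (r = 0.97 to 0.98 in RNA). SPRY1 had r = 0.48 in Ribo-seq.

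Most other genes of the ADH family were nearly absent from these cells. The closest relatives of ADH1B, ADH1A and ADH1C, which flank it, had mean RNA levels of at most 0.0257 and 0.619 CPM in any state, and ADH4, ADH6 and ADH7 were at most 0.123 CPM. ADH1C had 0.174 ± 0.194 CPM in cycling and 0.619 ± 0.105 CPM in irradiated cells and was not called (log2 difference 1.96, edgeR adjusted p = 0.0964). The class I genes are near copies of each other, and reads mapping to several places are in no gene's count, so values of ADH1A, ADH1B and ADH1C are uncertain to that extent. ADH5, the widely expressed class III enzyme that handles formaldehyde bound to glutathione, was at 313 ± 11.9 CPM (SD, n = 2) in cycling and 472 ± 35.6 CPM (n = 3) in irradiated cells. It rose by 0.59 ± 0.12 on the log2 scale after irradiation (edgeR adjusted p = 0.00193). In RNA of quiescent and etoposide-treated cells ADH5 was not called, at 0.22 and 0.21. In footprints it was called higher in quiescent cells, at 373 ± 24.5 against 245 ± 26.1 CPM (edgeR adjusted p = 0.00778). Its footprints averaged 456 ± 39.3 CPM in irradiated and 298 ± 22.6 CPM in etoposide-treated cells, given here as a description.

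The other genes of alcohol and aldehyde oxidation, a list of 25 that leaves out ADH1B, had 19 members tested in RNA. Shares of all genes called, against which the counts of this and the other lists stand, were 34.9% after irradiation, 34.5% after etoposide, 15.6% in quiescent cells and 24.5% with thapsigargin in RNA, and 39.8%, 34%, 21.7% and 44.4% in footprints. After irradiation 10 were higher and 1 lower, with a median log2 difference of 0.59 against 0.03 for all genes. After etoposide 9 were higher and 0 lower (median 0.21, all genes 0.00). In the quiescent state 4 were higher and 0 lower (median 0.22, all genes 0.02). With thapsigargin 0 were higher and 4 lower (median 0.03, all genes -0.03). ALDH2, the mitochondrial enzyme that clears acetaldehyde made by alcohol dehydrogenases, rose in all 3 arrested states, from 38.9 ± 2.00 CPM in cycling to 73.6 ± 10.5 in quiescent, 106 ± 2.19 in irradiated and 81.1 ± 16.4 CPM in etoposide-treated cells. Its edgeR adjusted p-values were 0.00264, 2.21e-05 and 0.000239. ALDH1A1, which makes retinoic acid from retinal, was low but higher after irradiation (2.44 ± 0.262 CPM) and etoposide (1.99 ± 0.479 CPM) than in cycling cells (0.0442 ± 0.0109 CPM), with edgeR adjusted p = 3.40e-05 and 5.49e-05. Its relative ALDH1A2 went from 0.161 ± 0.0815 CPM in cycling to 0.779 ± 0.344 in irradiated and 1.18 ± 0.206 CPM in etoposide-treated cells (edgeR adjusted p = 0.00827 and 0.00142), and the irradiated call was lost without cycling RNA replicate 2 (0.0780). The aldose reductase AKR1B1 rose by 1.69 after etoposide (adjusted p = 1.40e-05), and ALDH5A1, which oxidizes succinic semialdehyde, by 1.61 after irradiation (adjusted p = 0.000739). ALDH1A3, also a maker of retinoic acid, was higher by 0.90 in quiescent cells (adjusted p = 0.00859), a call lost without either cycling library. With thapsigargin the fatty aldehyde dehydrogenase ALDH3A2 fell by 1.15 (adjusted p = 0.00101). The thapsigargin calls of ALDH1B1 (-0.52) and ALDH2 (-0.63) were lost with only these states in the fit (adjusted p = 0.124 and 0.0716). The count of 11 called after irradiation fell to 7 without either cycling RNA library. Without cycling RNA replicate 1 or 2, the quiescent count of 4 fell to 1 each and the thapsigargin count of 4 to 1 and 2. In footprints, of 17 tested, 10 were higher and 1 lower after irradiation, 8 and 1 after etoposide, 4 and 0 in quiescent cells, and 3 and 2 with thapsigargin, where RNA had 0 and 4. That thapsigargin count of 5 rose to 9 without thapsigargin Ribo-seq replicate 2.

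Retinoid handling, the pathway of the retinol that ADH1B can oxidize, had genes called in both directions in RNA of 3 comparisons. Of 17 tested in RNA, 2 were higher and 5 lower after irradiation, 4 and 5 after etoposide, 0 and 2 in quiescent cells, and 2 and 3 with thapsigargin. Their medians were -0.11, -0.26, -0.02 and -0.26. In footprints, of 13 tested, 1 was higher and 4 lower after irradiation, 2 and 3 after etoposide, and 0 and 1 in quiescent cells. With thapsigargin 0 were higher and 8 lower in footprints, with a median of -1.18 against -0.11 for all genes, and the count was 5 without thapsigargin Ribo-seq replicate 1 and with only these states in the fit. LRAT, which esterifies retinol for storage, was low throughout, at 0.312 ± 0.0746 CPM in cycling, 0.0126 ± 0.0218 in quiescent, 0 in every irradiated and 0.0376 ± 0.0327 CPM in etoposide-treated libraries, and it was higher with thapsigargin at 2.52 ± 0.262 CPM. It was called in all 4 comparisons (edgeR adjusted p = 0.0143, 0.00269, 0.0149 and 0.00274), and without cycling RNA replicate 1 the quiescent and etoposide calls were lost (0.119 and 0.129). CYP26B1, which degrades retinoic acid, had 0.528 ± 0.179 CPM after etoposide and no count in the cycling RNA libraries (edgeR adjusted p = 0.0116, lost without either cycling library). RBP4, the retinol carrier of plasma, had 0.703 ± 0.364 CPM after etoposide against 0.0182 ± 0.0258 CPM (edgeR adjusted p = 0.00564, or 0.0520 without cycling RNA replicate 2). Etoposide-treated cells are also the state with the highest leukocyte and hepatocyte marker sums, and the part of that in these low levels was not tested. RDH10, the retinol dehydrogenase that makes retinal, went from 68.4 ± 8.70 CPM in cycling to 202 ± 13.8 CPM in irradiated and 331 ± 55.5 CPM in etoposide-treated cells (edgeR adjusted p = 0.000193 and 9.94e-06). RDH11, which reduces retinal, fell by 1.17 in quiescent and by 1.88 in irradiated cells on the log2 scale (edgeR adjusted p = 0.00375 and 3.21e-05). With thapsigargin DHRS3, a retinal reductase, fell by 2.27 (edgeR adjusted p = 2.89e-06). Without cycling RNA replicate 1 the quiescent count of 2 became 1 and the thapsigargin count of 5 became 3, as it did without thapsigargin RNA replicate 2.

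Of the other flavin monooxygenase genes described here, FMO4 and FMO5 were measurable at low levels, and FMO1 was nearly absent. FMO1 had a mean RNA level of at most 0.141 CPM in any state. FMO4 went from 0.525 ± 0.0827 CPM in cycling to 2.28 ± 0.814 CPM in irradiated cells without being called in RNA (edgeR adjusted p = 0.0582), although it was with DESeq2 (0.0251), without the thapsigargin libraries (0.00432) and with only these states (0.000360), and it was called in footprints (1.92, adjusted p = 0.00336). FMO5, which is outside the cluster, went from 0.913 ± 0.104 to 2.33 ± 0.413 CPM after irradiation and was called higher (edgeR adjusted p = 0.0112), a call lost without cycling RNA replicate 1 (adjusted p = 0.105) and with both strands counted (0.0666).

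**Figure D3:**
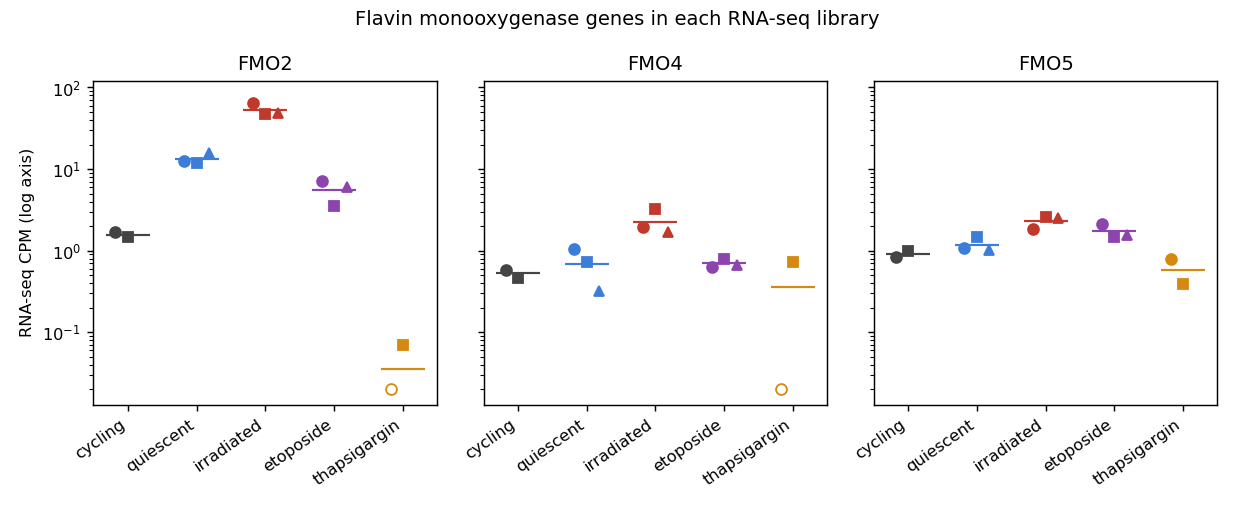
RNA-seq level of 3 flavin monooxygenase genes in every library, as CPM on a log axis; circles, squares and triangles are replicates 1, 2 and 3, lines are group means and open symbols at the bottom are libraries with no count. FMO2 separates all 5 states, while FMO4 (mean 2.28 CPM) and FMO5 (2.33 CPM) each have their highest mean in irradiated cells.

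The list of other flavin monooxygenase and drug metabolism genes, again without FMO2, had 22 of 25 tested in RNA. After irradiation 8 were higher and 4 lower (median 0.67, all genes 0.03), after etoposide 5 and 1 (median 0.47, all genes 0.00), in quiescent cells 2 and 4 (median 0.03), and with thapsigargin 1 and 4 (median -0.28). The 6 called after etoposide, of 22 tested, are a smaller share than that of all genes (34.5%). In footprints, also of 22 tested, 10 were higher and 6 lower after irradiation, 6 and 1 after etoposide, 1 and 4 in quiescent cells, and 6 and 5 with thapsigargin. MAOA, the outer mitochondrial membrane enzyme that oxidizes serotonin and noradrenaline, rose from 3.28 ± 0.202 CPM to 16.1 ± 1.39 after irradiation and 19.9 ± 2.81 CPM after etoposide (edgeR adjusted p = 1.39e-06 and 3.07e-07). Its relative MAOB fell by 2.29 and by 1.69 on the log2 scale (edgeR adjusted p = 0.000369 and 0.0022). CYP1B1, a cytochrome P450, rose by 2.23 after etoposide (edgeR adjusted p = 6.92e-05). The cytochrome P450 gene CYP2U1 fell by 1.09 in quiescent cells (edgeR adjusted p = 0.00950, or 0.0846 without cycling RNA replicate 1). With thapsigargin MAOA was higher by 1.08 and MAOB lower by 1.12 (edgeR adjusted p = 0.00178 and 0.0419). Without cycling RNA replicate 1 the count called fell from 12 to 7 after irradiation, from 6 to 3 in quiescent cells and from 5 to 2 with thapsigargin (1 without replicate 2), and the etoposide count of 6 rose to 10 in a fit without the thapsigargin libraries.

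Of 17 other centrosome linker and centriole cohesion genes tested in RNA, 0 were higher and 8 lower after etoposide (median -0.51, all genes 0.00), and 1 was higher and 5 lower after irradiation (median -0.26), where 34.9% of all genes were called, about the same share. In quiescent cells 1 was higher and 1 lower (median -0.11), and with thapsigargin 2 and 2 (median -0.25). In footprints 0 were higher and 6 lower after etoposide, 0 and 5 after irradiation, 0 and 2 in quiescent cells, and 2 and 4 with thapsigargin. NEK2 had log2 differences of -1.42 when quiescent, -3.67 after irradiation and -4.26 after etoposide (edgeR adjusted p = 0.0018, 3.10e-07 and 6.08e-08). PPP1CC, a phosphatase subunit that opposes NEK2, fell by 0.76 after irradiation and by 1.03 after etoposide (edgeR adjusted p = 0.000152 and 1.06e-05). CEP192, a scaffold of centrosome maturation, fell by 0.98 after etoposide (edgeR adjusted p = 2.73e-05). CEP85 fell by 1.07 after irradiation (adjusted p = 9.87e-05). With thapsigargin CEP68, a linker protein, fell by 1.25 (adjusted p = 0.000154), and the kinesin gene KIFC3 rose by 1.02 (adjusted p = 0.00104). CEP250, which anchors the linker to centrioles, was at 51.5 ± 22.7 against 105 ± 5.60 CPM (adjusted p = 0.0110), a call lost without thapsigargin RNA replicate 1 (0.0643) or cycling RNA replicate 2 (0.0667). CCDC102A, the paralog of CCDC102B, was higher by 0.82 in quiescent cells (edgeR adjusted p = 0.0120), a call lost without cycling RNA replicate 1 (0.156), and was not called after irradiation (0.38) or etoposide (-0.08). Counts of the list called moved to 12 after irradiation with only those states in the fit, to 4 in quiescent cells without quiescent RNA replicate 3, and to 2 with thapsigargin without cycling RNA replicate 2 or thapsigargin RNA replicate 1.

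TMX3, whose start site lies 107 bases from the first one of CCDC102B, was not called higher in any state. Its RNA was 91.7 and 97.8 CPM in cycling, 38.0, 65.9 and 86.0 CPM in quiescent, 49.0, 57.1 and 54.6 CPM in irradiated, and 118, 103 and 93.4 CPM in etoposide-treated libraries. Quiescent and irradiated cells lay below the cycling ones without overlap, while etoposide-treated cells overlapped them. CCDC102B was high in all 3 of these states. The share of all genes that separate in this way was not counted. Thapsigargin libraries, at 89.6 and 56.7 CPM, were also below the cycling ones, and TMX3 was not called there (-0.37, edgeR adjusted p = 0.376). In thapsigargin footprints TMX3 was called lower (-1.71, edgeR adjusted p = 0.00500), where 24.4% of all genes were. The log2 difference for TMX3 was -0.82 after irradiation in RNA (edgeR adjusted p = 0.0256) and -1.34 in footprints (adjusted p = 0.00536), and 0.15 in RNA after etoposide (adjusted p = 0.708). The irradiated RNA call was lost without either cycling library, or without irradiated RNA replicate 1 or 3 (adjusted p up to 0.117). In quiescent cells TMX3 had -0.58 in RNA (adjusted p = 0.161) and was called in footprints (edgeR adjusted p = 0.0340), a call lost without any 1 of the cycling Ribo-seq libraries, without a filter and with only these states. Without quiescent RNA replicate 3 it was also called in RNA (-0.87, adjusted p = 0.0299). Beyond CCDC102B, the adaptor gene DOK6 rose in RNA by 0.89 in quiescent and 0.95 in irradiated cells (edgeR adjusted p = 0.00128 and 0.000141). After etoposide it rose by 0.40 (edgeR adjusted p = 0.0351), a call lost without etoposide RNA replicate 1 (0.0637) or 3 (0.113). DOK6 was not called in footprints in any comparison. On the other side DSEL, a dermatan sulfate epimerase gene, fell in RNA by 0.89 in quiescent and 0.97 in irradiated cells (edgeR adjusted p = 0.00747 and 0.00162). The quiescent value was -0.74 without cycling RNA replicate 2. ADH6 and ADH7, further out from ADH1B, and MROH9 by FMO2 were near 0 in all states, and CD226, beyond DOK6, was not called in any of the 4 comparisons in RNA.

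**Figure D4:**
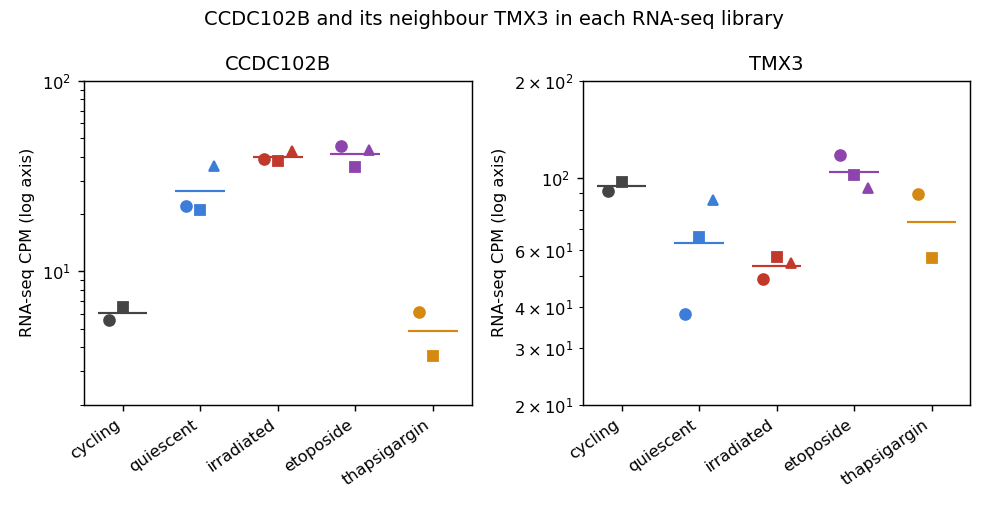
RNA-seq levels of CCDC102B and of TMX3 in every library, as CPM on log axes of different range. TMX3 and the first start site of CCDC102B lie 107 bases apart on opposite strands. Circles, squares and triangles are replicates 1, 2 and 3, and lines are group means. CCDC102B is high in all 3 arrested states. TMX3 lies below cycling cells (mean 94.7 CPM) in quiescent (63.3 CPM), irradiated (53.6 CPM) and thapsigargin-treated cells (73.1 CPM), and overlaps them after etoposide (mean 105 CPM).

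The last list held 21 fibroblast matrix and subtype genes, since ADH1B and FMO2 are also known from lung and adventitial fibroblasts. Of 17 tested in RNA, 8 were higher and 2 lower after etoposide (median 0.68), 7 and 3 after irradiation (median 0.51), 2 and 3 in quiescent cells (median 0.34) and 3 and 6 with thapsigargin (median -0.52), where 34.5%, 34.9%, 15.6% and 24.5% of all genes were called. In footprints, of 14 tested, 8 were higher and 2 lower after etoposide, 6 and 3 after irradiation, 3 and 2 in quiescent cells, and 2 and 5 with thapsigargin. C7, a complement gene of adventitial fibroblasts, went from 0.210 ± 0.143 CPM in cycling to 2.39 ± 0.320 in irradiated and 3.94 ± 1.07 CPM in etoposide-treated cells (edgeR adjusted p = 0.00195 and 0.000455). Its call in quiescent cells (log2 difference 2.96) was lost without either cycling library. ABCA6, a lipid transporter of the same cells, rose by 3.15 after etoposide (edgeR adjusted p = 0.00255). APOD, an apolipoprotein of fibroblasts, had 0.320 ± 0.159 CPM after etoposide against 0.0259 ± 0.0367 CPM (edgeR adjusted p = 0.0424, up to 0.284 without 1 library). MFAP5, a microfibril protein, was at 0.0376 ± 0.0378 CPM in quiescent and 0.452 ± 0.0205 CPM in cycling cells (edgeR adjusted p = 0.0127), a call lost without either cycling library. CXCL12, a stromal chemokine, had log2 differences of -1.72 in quiescent cells, -2.59 after irradiation and -1.65 with thapsigargin (edgeR adjusted p = 0.000534, 1.62e-06 and 0.000365). PDGFRA, the receptor that marks many fibroblasts, fell by 1.81 with thapsigargin (edgeR adjusted p = 0.000342), and the growth factor FGF7 by 2.16 (adjusted p = 0.000537). The irradiated count of 10 fell to 6 without cycling RNA replicate 2, and the quiescent count of 5 to 2 without either cycling library.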

How the data were processed

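The 27 libraries (13 of RNA-seq, 14 of Ribo-seq) were grouped by the state and assay in their titles. Each deposited file holds unnormalized counts for every gene ID, for both strands together and for each strand. The submitters' processing notes name bcl2fastq, STAR 2.7.10b, DESeq2 1.36.0 and the build hg38, without saying which did what. RNA-seq counts were taken from column 4 (reverse strand) and Ribo-seq counts from column 3 (forward strand), and 3.56% to 10.7% of counts lay on the opposite strand. Lines without a gene ID were not used: unmapped reads (1.35% to 40.6%), multimapping reads (9.43% to 66.9%) and reads in no gene (1.45% to 12.8% of those mapped once). RNA-seq and thapsigargin Ribo-seq files list 62703 IDs and the others 60664, so Ribo-seq comparisons with thapsigargin, and TE elsewhere, cross gene lists. The 60534 shared IDs held at least 99.6% of the counts in each library. Symbols matched 60461 of them, and the RefSeq table (GRCh38.p14) gave biotypes for 40525. Coordinates and promoter sequences are RefSeq's.

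Protein-coding genes passing edgeR's filterByExpr were fitted over all 5 states of an assay with edgeR 4.0.16 (R 4.3.3), using TMM scaling and robust two-sided quasi-likelihood F tests with Benjamini-Hochberg adjustment over all genes tested. SE is the absolute log2 difference over the root of F. TE was the interaction of state and assay over 27 libraries. Intervals for counts are exact at 95% and, like the limit of 3 counts, cover counting error only. Alternatives were RLE scaling, DESeq2 1.42.0, no filter, all genes with a symbol, both strands together, only the states compared, a replicate block, and leaving out each library. Fits without the thapsigargin libraries, a TE fit with a block for each state and number across assays, and counts of lists, were added after seeing the data. The members and lists were chosen with earlier results of these data known. Named genes were the members, their families, their neighbours, up to 3 called genes per list and comparison in RNA with the largest difference (values of these in other comparisons were added), and the 5 genes most correlated with each member. Some genes that this rule names are not reported here. The code was tested on simulated data.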

Additional observations from a re-analysis of the deposited data

How the results depend on the processing

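Calls for FMO2 and CCDC102B after etoposide, and for FMO2 with thapsigargin, held under every alternative run. Counts of genes called moved over 1.5 times with only the states compared: to 853 in quiescent RNA (2068 in the reported fit), 1507 in thapsigargin RNA (3256) and 6021 in etoposide Ribo-seq (4000). Leaving out 1 library gave 707 to 2242 in quiescent, 2778 to 3905 in irradiated, 2612 to 3996 in etoposide and 1592 to 3404 in thapsigargin RNA, and 1558 to 2934 in quiescent Ribo-seq. ADH1B after etoposide ranged from 0.65 to 2.41 in RNA and from 1.29 to 2.68 in Ribo-seq, where it was 1.86 with only these states. Its thapsigargin Ribo-seq adjusted p was 0.0222 with DESeq2. For CCDC102B with thapsigargin the ranges were -0.72 to 0.0345 in RNA, 0.0544 to 1.67 in Ribo-seq and 0.34 to 1.90 in TE, and 1.07 and 1.32 with only these states in Ribo-seq and TE. TE after etoposide ranged over 0 for all 3 genes: -0.58 to 1.35 for ADH1B, -0.26 to 0.18 for FMO2 and -0.21 to 0.0656 for CCDC102B. FMO2 TE was also above 0 with RLE scaling (0.0229), both strands (0.30), all symbols (0.0175), no thapsigargin libraries (0.0199) and only these states (0.0145), never called. CCDC102A after etoposide ranged up to 0.0568. Of the gene lists, in RNA with only the states compared, the alcohol and aldehyde list had 2 called in quiescent cells (4 in the reported fit) and 1 with thapsigargin (4), the retinoid list 1 in quiescent cells (2), the drug metabolism list 10 after etoposide (6) and 1 with thapsigargin (5), the centrosome list 1 in quiescent cells (2), 12 after irradiation (6) and 2 with thapsigargin (4), and the fibroblast list 2 in quiescent cells (5). In footprints with only the states compared, the retinoid list had 3 when quiescent (1), 9 after irradiation (5) and 8 after etoposide (5), the drug metabolism list 11 after etoposide (7), and the centrosome list 1 in quiescent (2) and 10 in irradiated cells (5). TE calls numbered 8 after etoposide (14 without a filter, 15 without thapsigargin libraries, 28 with only these states) and 2432 with thapsigargin (1053 with only these states), or 5 to 8 and 1557 to 3770 without 1 library. The cause was not tested, except that fewer libraries enter these fits. Same-numbered libraries had a median correlation of deviations of 0.03 in RNA and 0.02 in Ribo-seq, with 9 of 23 and 6 of 26 pairs above 0.1, so the numbers were not taken to pair them. With a replicate block, ADH1B after etoposide was 1.02 in RNA (adjusted p = 0.217) and 1.77 in Ribo-seq (0.0364), CCDC102B TE with thapsigargin was 1.36 (0.0329), and no call of the members changed. Same-numbered RNA-seq and Ribo-seq libraries of a state had a median correlation of 0.0931, above 0.1 in 6 of 13 pairs. Libraries with other numbers had a median of -0.0512, above 0.1 in 2 of 24 pairs. Some same-numbered libraries may thus be paired across assays, which the reported TE fit does not model. With a replicate block across assays, added after seeing the data, FMO2 TE after etoposide was 0.111, CCDC102B TE with thapsigargin was 1.195 (adjusted p = 0.0553), and 13 genes were called for TE after etoposide. Depth limits the thapsigargin footprints, among other properties of those libraries.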
